A study of Mus musculus with 79 samples.

Results

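Bdnf and the neurotrophin family were followed through the hypothalamus of mice with a mutant DNA methyltransferase. The family was represented by 5 genes, taken by name from the 25965 genes of the RNA-seq table: the ligands Bdnf and Ntf3, the kinase receptors Ntrk2 and Ntrk3, and the shared low-affinity receptor Ngfr. Their levels were read in 9 RNA-seq libraries, and 3 histone marks were read along them in 24 ChIP-seq libraries. Control mice (+/+) had 2 intact Dnmt3a alleles. Δ/D329A mice had a maternal Dnmt3a allele deleted in the oocyte by a Zp3 promoter-driven Cre and a paternal allele with the D329A substitution in the PWWP domain, so that the mutant protein was the only functional one in every tissue. All animals were about 14 weeks old. The study gives the RNA-seq animals as female in one place and as male in another, and the ChIP-seq animals as male. The RNA-seq had 5 +/+ and 4 Δ/D329A libraries, and each mark and the input had 3 libraries per genotype, each from part of 1 hypothalamus.

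Neurotrophins are secreted growth factors that keep neurons alive and adjust their synapses. BDNF binds TrkB, the product of Ntrk2, neurotrophin-3 binds mainly TrkC, the product of Ntrk3, and all neurotrophins bind p75, the product of Ngfr. In the hypothalamus BDNF acting on TrkB is known to restrain feeding. Bdnf has several alternative first exons, each with its own promoter, spliced to one shared coding exon. H3K4me3 marks the starts of active or poised genes, H3K27me3 is laid down by Polycomb at repressed genes, and H3K36me3 lies along transcribed gene bodies.

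The marks were compared at the gene starts, so the bases before 6 of these starts are shown, with CpG dinucleotides, the sites of DNA methylation, in capitals. RefSeq (GRCm38.p6) held 11 promoters of 4 of the 5 genes, and Ntrk3 had no entry. The first Bdnf sequence precedes the most upstream start, at chr2:109674450-109674699 on the plus strand, within chr2:109672001-109680000, the run of marked tiles around the first of 2 H3K4me3 sites of the gene. The second Bdnf sequence, chr2:109692186-109692435 on the plus strand, lies within chr2:109691001-109697000, the run around the second. The third, chr2:109709133-109709382 on the plus strand, precedes a start that had no H3K4me3. The Ntf3 sequence is chr6:126164961-126165210 on the minus strand, before its downstream start, and the Ngfr sequence is chr11:95587736-95587948 on the minus strand, ending at the first annotated exon. The Ntrk2 sequence is chr13:58806319-58806568 on the plus strand.
Bdnf, upstream start: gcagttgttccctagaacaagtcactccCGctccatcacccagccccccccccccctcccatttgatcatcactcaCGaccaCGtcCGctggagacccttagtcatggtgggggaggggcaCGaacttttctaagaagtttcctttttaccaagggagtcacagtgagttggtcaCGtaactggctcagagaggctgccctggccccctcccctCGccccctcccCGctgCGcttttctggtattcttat
Bdnf, second site: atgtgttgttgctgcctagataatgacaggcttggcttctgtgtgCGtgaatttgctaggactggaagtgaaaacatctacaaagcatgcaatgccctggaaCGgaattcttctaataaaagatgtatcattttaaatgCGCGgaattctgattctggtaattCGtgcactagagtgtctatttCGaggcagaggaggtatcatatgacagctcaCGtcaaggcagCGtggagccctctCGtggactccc
Bdnf, unmarked start: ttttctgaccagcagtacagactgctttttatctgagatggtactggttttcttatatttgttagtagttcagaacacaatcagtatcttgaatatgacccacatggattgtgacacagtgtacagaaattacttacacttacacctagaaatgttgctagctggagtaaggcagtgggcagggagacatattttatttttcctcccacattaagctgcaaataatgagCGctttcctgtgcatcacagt
Ntf3, downstream start: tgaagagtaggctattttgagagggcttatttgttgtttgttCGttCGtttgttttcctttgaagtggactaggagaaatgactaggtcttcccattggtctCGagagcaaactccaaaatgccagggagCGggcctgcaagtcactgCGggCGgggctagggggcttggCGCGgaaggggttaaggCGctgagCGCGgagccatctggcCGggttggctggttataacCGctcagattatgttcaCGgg
Ngfr: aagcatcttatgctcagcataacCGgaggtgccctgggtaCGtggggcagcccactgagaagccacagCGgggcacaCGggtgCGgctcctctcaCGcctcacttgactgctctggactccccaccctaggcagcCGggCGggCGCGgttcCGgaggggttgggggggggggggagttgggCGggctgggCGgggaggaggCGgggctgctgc
Ntrk2: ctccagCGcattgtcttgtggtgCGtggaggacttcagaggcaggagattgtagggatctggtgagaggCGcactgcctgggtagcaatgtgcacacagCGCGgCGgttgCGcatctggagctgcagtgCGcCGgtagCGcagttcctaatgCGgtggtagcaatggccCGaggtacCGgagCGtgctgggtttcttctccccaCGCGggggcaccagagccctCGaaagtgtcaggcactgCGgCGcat
Over the 250 bases before the start, all 32851 RefSeq promoters held a median of 6 CpGs (quartiles 2 and 16). The upstream and second-site Bdnf promoters held 9 each, the unmarked one 1, Ntf3 14, Ngfr 16 and Ntrk2 19. The cyclic AMP response element TGACGTCA was in none of the 11 promoters and in 1.55% of all promoters, on either strand. Its core TGACG was in 1 of the 11, the second-site Bdnf promoter, and in 17.8% of all. The E-box CACGTG was in 1, the upstream Ntf3 promoter, and in 6.02% of all. The core lies inside the full element, all of these motifs contain CG, and matches of the core and the E-box can overlap.

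The RNA libraries held 10519195 to 18386073 reads, of which 33.3% to 54.3% fell on genes, and +/+ replicates 4 and 5 had the lowest shares. The H3K4me3 libraries held 12676361 to 15944966 reads, the H3K27me3 libraries 14874942 to 26178088, the H3K36me3 libraries 19056381 to 22850001 and the inputs 14708935 to 30207875. Background was highest in Δ/D329A replicate 1 of H3K4me3, with a median of 5 reads per tile against 1 to 3 in the other H3K4me3 libraries. Neuropeptide and regulator genes of hypothalamic neurons summed to 412 to 854 RPKM (read counts divided by exon length and library size) in +/+ and 480 to 696 in Δ/D329A, against 12.03 to 17.7 and 14.5 to 18.6 RPKM for cortical and hippocampal genes. Dnmt3a RNA, which neither allele removes, averaged 1.91 log2 RPKM over the 5 +/+ libraries (SD 0.16) and 1.63 over the 4 Δ/D329A libraries (SD 0.09), with adjusted p = 0.355 in limma. Of 17 marker lists, only the melanocyte list had summed levels without overlap, 1.03 to 1.35 RPKM in +/+ and 3.88 to 6.57 in Δ/D329A. In it Dct and Gpnmb rose by 4.97 and 4.16 on the log2 scale and Mlana had no read, while Pmel had a difference of -1.06 ± 0.47 (SE; adjusted p = 0.355 in limma), Tyr and Tyrp1 did not pass the filter and Mitf had 0.37 ± 0.24. In lists whose sums overlapped, the 7 thalamic genes had a median difference of 0.73 beside 0.06 for all genes, with Plekhg1 and Synpo2 without overlap, and all 5 oligodendrocyte precursor genes had negative differences, none of them called. At promoters, H3K4me3 fell at the cortical genes Neurod6, Neurod2 and Fezf2, with log2 differences of -3.30, -1.98 and -1.54. The part of these lists in the results below was not tested.

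The Trk receptors were the most abundant members. Ntrk2 had the highest level, at the 97.4th percentile of the 17839 genes tested, followed by Ntrk3 at the 84.8th, Bdnf at the 43.4th and Ngfr at the 24.1st, on the length-corrected log2 RPKM scale. These 4 levels did not overlap between genes in either genotype. Ntf3 was at the edge of detection and did not pass the filter of 0.1 RPKM in 4 libraries, so 4 of the 5 members were tested. In bulk tissue, fewer cells of a type and less RNA per cell cannot be told apart.

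Bdnf RNA was 1.30, 1.10, 1.10, 0.43 and 0.23 log2 RPKM in +/+ replicates 1 to 5 and 0.69, -0.05, 0.29 and 0.55 in Δ/D329A replicates 1 to 4. The 3 highest libraries were +/+, and +/+ replicates 4 and 5 lay within the Δ/D329A range. These values came from 123 to 282 reads per library in +/+ and 63 to 147 in Δ/D329A. The difference of Δ/D329A minus +/+ was -0.47 ± 0.26 (SE) on the log2 scale and did not pass the test, with adjusted p = 0.427 in limma and an exact two-sided permutation p = 0.127 (0.212 adjusted over the 5 members). Without +/+ replicates 4 and 5, the libraries with the lowest share of reads on genes, the difference was -0.80 (adjusted p = 0.197 in limma, a choice made after seeing the data). Their shares were 36.3% and 33.3%, and Δ/D329A replicate 2, with 36.8%, was kept. Leaving them out also moved the median difference of all tested genes from 0.06 to -0.13. After centring each library on its median over the tested genes, the Bdnf difference was -0.48, with overlapping groups and an exact permutation p = 0.0317 (0.0794 adjusted over the 5 members; adjusted p = 0.211 over all genes in limma). The study listed Bdnf among its downregulated genes, from these same libraries with DESeq at adjusted p under 0.01. No fit here called Bdnf, and its direction here is not independent evidence.

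Ntf3 had 3, 3, 7, 2 and 0 reads in the +/+ libraries and 1, 1, 0 and 0 in Δ/D329A. The ratio of Δ/D329A to +/+ reads, each per read on genes, was 0.218 (exact 95% interval 0.0242 to 0.937, which covers counting error only), and the exact two-sided permutation p over libraries was 0.111. A library without a read is deposited at a floor of 0.9 reads, so the log2 values of Ntf3 rest partly on that floor. The level of this ligand was too low for these libraries to compare firmly.

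Ntrk2, the BDNF receptor, was 5.32, 5.05, 5.16, 4.73 and 4.74 log2 RPKM in +/+ and 4.93, 4.69, 4.89 and 4.97 in Δ/D329A. The groups overlapped and differed by -0.13 ± 0.16 (SE; adjusted p = 0.849 in limma). After the same centring, the 4 Δ/D329A libraries (3.68 to 3.82 above the median) lay below all 5 +/+ libraries (3.83 to 3.97). The difference was -0.15, with an exact permutation p = 0.0159 (0.0794 adjusted over the 5 members, the value that every member had). The share of all genes without overlap after centring was not computed. Among the 18 limma, edgeR and DESeq2 alternatives, the smallest adjusted p of Ntrk2 was 0.239.

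Ntrk3, the neurotrophin-3 receptor, was 3.43, 2.99, 3.06, 2.94 and 3.003 log2 RPKM in +/+ and 3.29, 3.21, 3.34 and 3.31 in Δ/D329A. Every Δ/D329A library was above 4 of the 5 +/+ libraries, and +/+ replicate 1 was the highest of all. The difference was 0.20 ± 0.13 (SE; adjusted p = 0.544 in limma). Ngfr was -0.99, -1.43, -1.72, -2.15 and -2.28 log2 RPKM in +/+ and -1.01, -1.72, -1.20 and -1.26 in Δ/D329A, from 11 to 32 reads per library. The groups overlapped, with a difference of 0.42 ± 0.29 (SE; adjusted p = 0.580 in limma).

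None of the 4 tested members was called at adjusted p under 0.01, where 0.107% of all genes were called (15 higher and 4 lower of 17839). Before centring, none of the 4 was without overlap between genotypes, against 1.23% of genes lower and 1.78% higher without overlap. After median centring 34 genes were called (22 higher and 12 lower), again no member. edgeR on the reads recovered from the values called 77 genes (40 higher and 37 lower, 0.554%), and DESeq2 called 251 (133 higher and 118 lower, 1.56%). Neither called a member, and Bdnf had an adjusted p of 0.103 in edgeR and 0.0780 in DESeq2.

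**Figure D1:**
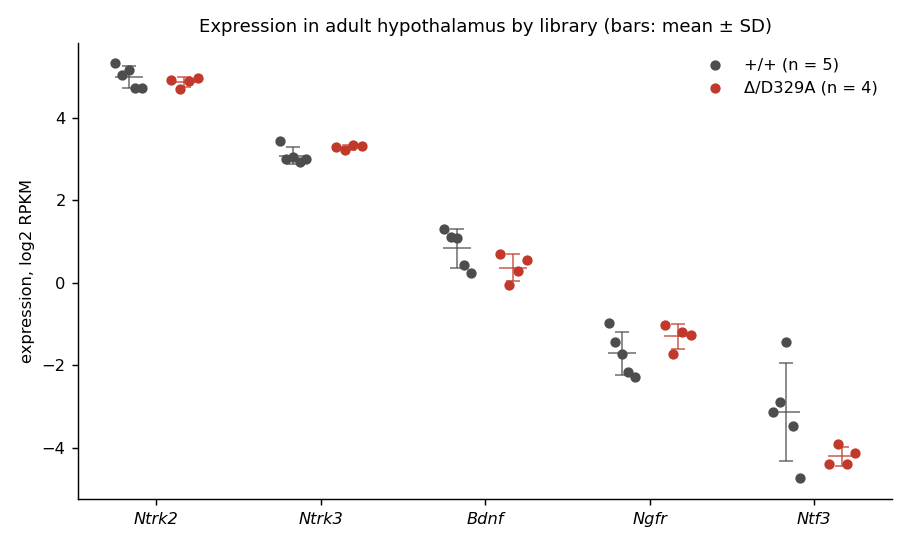
Expression in log2 RPKM (vertical axis) of the 5 members in each +/+ (grey, n = 5) and Δ/D329A library (red, n = 4), with bars at the mean ± SD. The groups overlap for every member, Ntrk2 is highest and Ntf3 lowest, and libraries without a read sit at the deposited floor.

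Of the other ligands and receptors, Ntf5, the gene of neurotrophin-4, was nearly silent, with 1 read in all +/+ libraries and 4 in Δ/D329A. Sort1, the sorting receptor for proneurotrophins, averaged 4.003 log2 RPKM in +/+ (SD 0.38, n = 5) and 3.97 in Δ/D329A (SD 0.19, n = 4).

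The marks split the members into 2 sets. At Bdnf, Ntf3 and Ngfr the H3K27me3 level was at least 3 times input over 14 of 65, 9 of 77 and 11 of 31 tiles (windows of 2000 bp, spaced 1000 bp, within 6000 bp of the gene). Their longest marked runs were chr2:109672001-109681000, chr6:126159001-126169000 and chr11:95576001-95588000. At Ntrk2 and Ntrk3 no tile of 339 and 398 reached 3 times input, and the highest ratios were 1.17 and 1.82. Among all promoter windows (1500 bp upstream to 500 bp downstream of the start), Bdnf was at the 97.1st percentile of H3K27me3 over input, Ntf3 at the 96.3rd, Ngfr at the 88.4th, Ntrk3 at the 71.1st and Ntrk2 at the 56.2nd. For H3K4me3 over input the Trk receptors were above the other members, with Ntrk3 at the 97.6th percentile, Ntrk2 at the 87.3rd, Bdnf at the 58.4th, Ngfr at the 47.2nd and Ntf3 at the 34.7th.

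**Figure D2:**
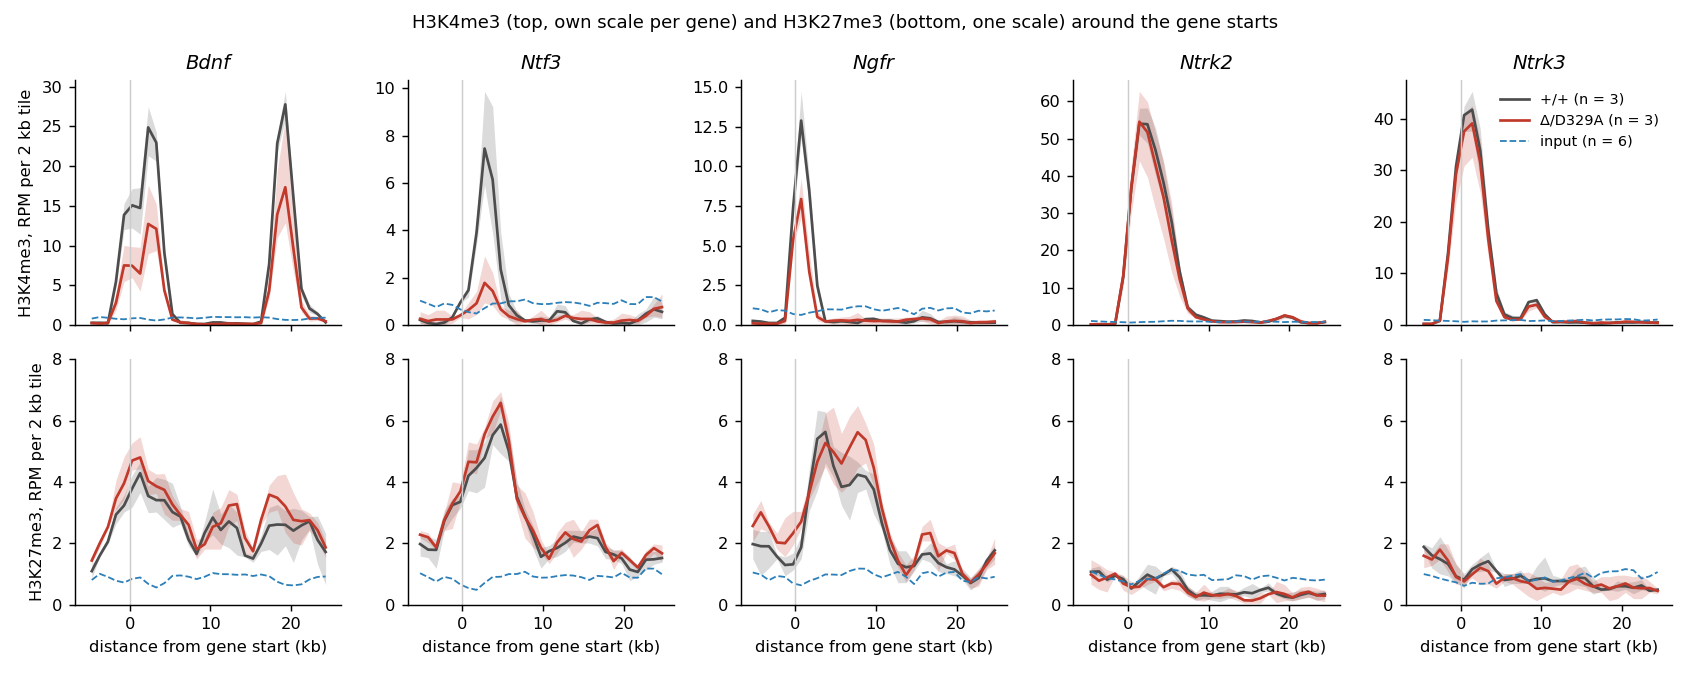
H3K4me3 (top, RPM per tile, that is reads scaled to library size, own scale for each gene) and H3K27me3 (bottom, one scale) against the distance from the gene start in kb, as the mean and range of 3 +/+ (grey) and 3 Δ/D329A libraries (red), with input dashed. The H3K4me3 peaks of Bdnf, Ntf3 and Ngfr are lower in red, those of Ntrk2 and Ntrk3 overlap, and H3K27me3 is above input at the first 3 genes.

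The lower H3K4me3 values lay at Bdnf, Ntf3 and Ngfr. Along the members 11 H3K4me3 sites were found, of 20685 in the genome (tiles with at least 3 times input, each given by its highest tile). The mean over both genotypes decided which tiles were kept. Of these 11, 3 were called lower in Δ/D329A at adjusted p under 0.05 in limma, against 1.71% of all sites, and 4 were lower without overlap, against 7.60% of all. No member site was called higher (0.290% of all sites) or was higher without overlap (0.662%). This test over all sites was added after the values were seen. Of the 3 sites called lower, the Ntf3 one was under 3 times input in the Δ/D329A mean and was kept through +/+.

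The first Bdnf site, chr2:109676001-109678000, lies 2300 bp inside the gene and holds 1 annotated start and noncoding exon sequence. Its H3K4me3 was 21.3, 27.5 and 25.8 RPM (reads scaled to library size) in +/+ and 11.6, 17.6 and 8.97 in Δ/D329A. Every Δ/D329A library was below every +/+ library. The means of 24.9 ± 3.2 and 12.7 ± 4.4 RPM (SD, n = 3 each) gave a log2 difference of -1.01 ± 0.23 (SE; adjusted p = 0.00134 in limma).

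The second Bdnf site, chr2:109693001-109695000, lies 19300 bp inside the gene and holds 4 annotated starts. It had 28.02, 29.4 and 25.9 RPM in +/+ and 13.3, 25.9 and 12.8 in Δ/D329A. Replicate 2 of Δ/D329A all but reached the lowest +/+ library, at 25.87 against 25.88 RPM, while the other Δ/D329A libraries were far below. The log2 difference was -0.75 ± 0.22 (SE; adjusted p = 0.0398 in limma). The Bdnf start of the unmarked promoter shown above had a mean H3K4me3 of 0.279 RPM in +/+ and 0.189 in Δ/D329A, below input.

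The Ntf3 site, chr6:126163001-126165000, lies 2744 bp inside the gene, around the downstream start, and includes coding exon sequence. It had 9.87, 6.58 and 5.91 RPM in +/+ and 0.941, 2.92 and 1.48 in Δ/D329A, with input between 0.556 and 0.848 RPM. The Δ/D329A libraries were all below the +/+ ones, and the lowest was close to input. This site lost the most of the 11, 4.18-fold lower by the means, with a log2 difference of -2.11 ± 0.31 (SE; adjusted p = 9.03e-09 in limma). It ranked 14th from the lowest of all 20685 sites, and it was called under all 12 alternatives. Sites were kept on the mean over both genotypes. Here the Δ/D329A mean, 1.78 RPM with input at 0.791, was under 3 times input, and the +/+ mean was 7.45. The site was thus kept through its +/+ libraries, and its rank and calls are not independent of that choice.

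The Ngfr site, chr11:95586001-95588000, lies 735 bp inside the gene and holds its annotated start and coding sequence. It had 12.1, 11.8 and 14.7 RPM in +/+ and 6.77, 9.23 and 7.81 in Δ/D329A. The groups did not overlap, but the log2 difference of -0.70 ± 0.25 (SE) did not pass the test (adjusted p = 0.179 in limma). Without Δ/D329A replicate 2, or with mitochondrial coverage as a block, it did (adjusted p = 0.0248 and 0.00419 in limma).

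The highest Ntrk2 site, chr13:58807001-58809000, had 52.9, 50.9 and 58.1 RPM in +/+ and 44.0, 62.6 and 56.9 in Δ/D329A, and the groups overlapped. Its log2 difference was 0.00 ± 0.20 (SE). The other 4 Ntrk2 sites, between 204404 and 286404 bp inside the gene and outside annotated exons, had +/+ means of 2.28 to 8.43 RPM and differences of -0.42 to 0.06. The highest Ntrk3 site, chr7:78576001-78578000, had 42.4, 37.6 and 45.3 RPM in +/+ and 32.5, 42.2 and 42.6 in Δ/D329A, with a difference of -0.10 ± 0.21 (SE). The other Ntrk3 site, chr7:78568001-78570000, outside annotated exons, had means of 4.82 and 3.94 RPM and a difference of -0.29 ± 0.29 (SE). None of these 7 sites was called, and in all of them the groups overlapped.

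**Figure D3:**
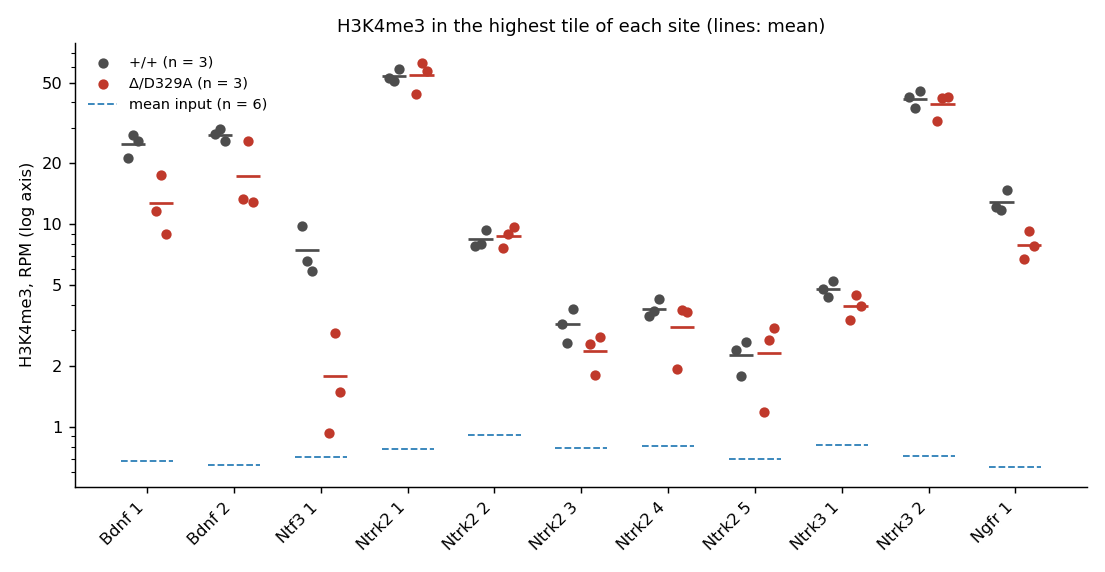
H3K4me3 in RPM (log axis) in the highest tile of each of the 11 sites, numbered within each gene, for 3 +/+ (grey) and 3 Δ/D329A libraries (red), with means as lines and mean input dashed. The red points lie below the grey at Bdnf, Ntf3 and Ngfr, most widely at Ntf3, and are mixed with them at the Ntrk2 and Ntrk3 sites.

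The smallest exact permutation p that 3 libraries against 3 allow is 0.1, which both Bdnf sites, Ntf3 and Ngfr reached (0.275 adjusted over the 11 sites). limma's smaller p-values come from the spread it estimates over all sites. The Bdnf calls depend on that estimate and on the scaling. With each library centred on its median, which moved the median difference of all sites from -0.10 to 0.02, the Bdnf sites had adjusted p = 0.131 and 0.220 in limma and Ntf3 0.0323, and with edgeR on reads they had 0.103, 0.222 and 0.0272. Without +/+ replicate 2, without +/+ replicate 3 or without Δ/D329A replicate 3 the first Bdnf site had adjusted p = 0.122, 0.0824 and 0.250 in limma. The second was not called without any 1 of the +/+ libraries or without Δ/D329A replicate 3 (adjusted p = 0.286 to 0.777 in limma), and it was called without either of the other Δ/D329A libraries. The H3K4me3 libraries also differed in mean mitochondrial coverage, at 29.5 to 44.6 RPM in +/+ replicate 3 and Δ/D329A replicates 2 and 3 and 14.8 to 19.2 in the others. Within the high set the ratios of Δ/D329A to +/+ were 0.515, 0.748, 0.372 and 0.579 at the 2 Bdnf sites, Ntf3 and Ngfr, and within the low set 0.476, 0.463, 0.114 and 0.566. Each set holds 1 library of one genotype (+/+ in the high set, Δ/D329A in the low), so these ratios have no error and no test.

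Sites that carried H3K27me3 included larger shares of lower and of higher calls than the rest. Of the 1674 sites in the genome with H3K27me3 at least 3 times input, 12.7% were called lower, 2.09% were called higher and the median log2 difference was -0.37. Of the other 19011 sites, 0.736% were called lower, 0.132% higher, and the median was -0.10. The shares of sites with a negative difference were 86.0% and 84.5%. The 4 sites of Bdnf, Ntf3 and Ngfr belonged to the first class, with H3K27me3 at 4.98, 4.02, 6.49 and 3.24 times input, and the 7 sites of Ntrk2 and Ntrk3 to the second. These ratios are means over both genotypes. At Ngfr the +/+ mean, 1.87 RPM with input at 0.700, was under 3 times input. The Δ/D329A mean was 2.71 RPM with input at 0.575, so Ngfr entered the first class through Δ/D329A. At the Ntf3 and Ngfr sites H3K27me3 was also higher in Δ/D329A without overlap, 2 of 11 against 8.15% of all sites (6.31% were lower). It was 3.84, 5.22 and 5.31 RPM in +/+ and 5.78, 5.42 and 5.48 in Δ/D329A at Ntf3, and 1.89, 1.501 and 2.23 against 2.49, 2.60 and 3.05 at Ngfr. The split of the sites by H3K27me3 was chosen after the values were seen and was not tested.

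**Figure D4:**
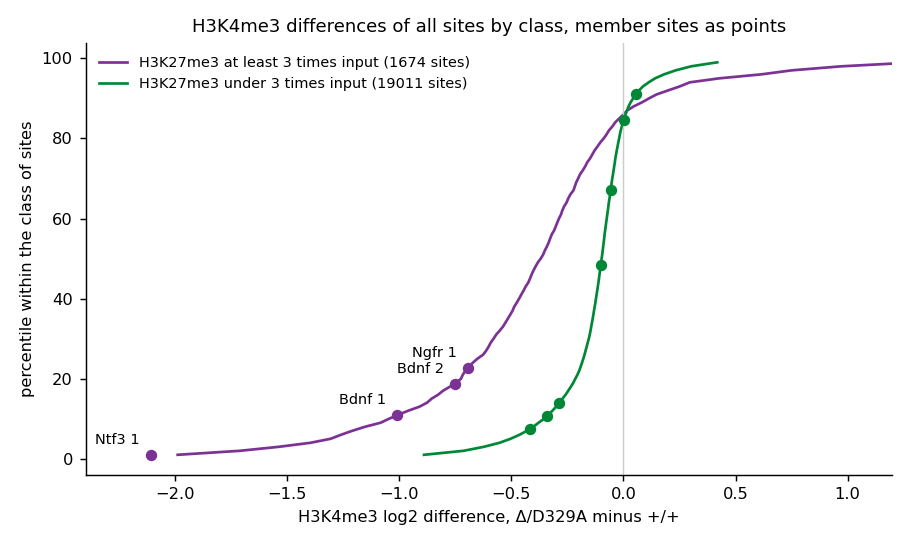
Percentile within each class of sites (vertical axis) against the H3K4me3 log2 difference, Δ/D329A minus +/+, for the 1674 sites with H3K27me3 at least 3 times input (purple) and the other 19011 (green), with the 11 member sites as points. The purple curve lies left of the green up to the 86th percentile and right of it from the 87th. The labelled sites of Bdnf, Ntf3 and Ngfr lie below the 23rd percentile of the purple curve.

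Over the promoter windows Bdnf had the lowest log2 difference of the members. Bdnf H3K4me3 was 12.1, 16.2 and 15.0 RPM in +/+ and 5.71, 9.94 and 6.81 in Δ/D329A, without overlap. Its log2 difference of -0.97 ± 0.22 (SE) was called (adjusted p = 0.00172 in limma), 1 of 5 members against 1.09% of promoters called, or 0.888% called lower and 0.200% higher (213 and 48 of 23987, and 62 and 26 after median centring, which moved the median of all promoters from -0.07 to 0.08). Ntf3 and Ngfr were also without overlap, 3 of 5 members lower against 4.39% of promoters (and none higher against 1.83%), but were not called, with differences of -0.81 ± 0.45 and -0.46 ± 0.27 (SE). The Ntf3 window does not contain its H3K4me3 site and had only 0.640 RPM in +/+. The Bdnf promoter was not called without the filter on low values (adjusted p = 1.0, with 0 promoters called and 900 at an unadjusted p under 0.05) or as a ratio to input (adjusted p = 0.452 in limma). Nor was it without +/+ replicate 2, +/+ replicate 3 or Δ/D329A replicate 3 (adjusted p = 0.197, 0.110 and 0.0911 in limma).

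No member passed the test for H3K27me3. At the Bdnf promoter it was 3.62, 3.15 and 3.77 RPM in +/+ and 3.93, 4.01 and 5.05 in Δ/D329A, and at Ngfr 1.04, 1.35 and 1.54 against 1.82, 1.76 and 2.94. Both were higher without overlap, 2 of 5 members against 7.21% of promoters (none lower, against 7.45%). The log2 differences of 0.29 ± 0.16 and 0.67 ± 0.22 (SE) did not pass the test (adjusted p = 0.548 and 0.190 in limma). None of the 5 was called, where 0.829% of promoters were called higher and 0.222% lower. Ntf3 averaged 3.31 RPM in +/+ (SD 0.21) and 3.50 in Δ/D329A (SD 0.51). Over the marked tiles the means were 3.09 and 3.60 RPM at Bdnf, 4.45 and 4.82 at Ntf3 and 3.98 and 4.51 at Ngfr, and the groups overlapped at all of them. Over the gene bodies, from 500 bp after the start, no member was called (0.0401% of all, 0.0115% higher and 0.0286% lower), 1 of 5, Ntf3, was higher without overlap (5.83% of all, and 12.9% lower), and the log2 differences ran from -0.20 at Ntrk3 to 0.20 at Ngfr.

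H3K36me3 along the gene bodies was highest at the abundantly expressed Trk receptors. Its means in +/+ were 1.33 RPM at Ntrk3, 1.18 at Ntrk2, 0.559 at Bdnf, 0.552 at Ntf3 and 0.286 at Ngfr, with input at 0.887 to 0.948. Along Bdnf it rose from 0.315 RPM over the first part of the gene to 0.918 over the last in +/+, and from 0.319 to 0.721 in Δ/D329A (the gene cut into 4 equal parts), and the groups overlapped in each part. No member gene body was called, and none of all 21119 was (0.0% of all, with 3491 at an unadjusted p under 0.05 in limma and 153 called by edgeR). The log2 differences of the 5 members ran from -0.14 to 0.23, and none was without overlap, against 16.3% of gene bodies lower and 6.96% higher. At the promoters 4 of the 5 members passed the filter and none was called (0.0454% of all). Ntf3 was higher there without overlap, 1 of 4 against 9.28% (2.74% were lower), at a level below input.

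The pathway around the family showed no called change in RNA, which does not show that levels were equal. Of 110 genes in 7 lists of ligands, receptors, processing enzymes, signalling adaptors, p75 partners, Bdnf regulators and BDNF response genes, 102 were tested and none was called in either direction (0.0841% of all genes higher and 0.0224% lower). The list medians ran from 0.01 to 0.22 in the 6 lists other than the ligands, beside 0.06 for all genes. Of the response genes, 3 of 16 had negative differences, and the immediate early genes Egr1 and Egr3 had the smallest p-values, with differences of 0.69 ± 0.16 and 1.30 ± 0.36 (SE; adjusted p = 0.234 and 0.333 in limma). Sos1, the exchange factor that activates Ras, had -0.38 ± 0.12 (SE; adjusted p = 0.355 in limma). Of the regulators, Bhlhe40 had 0.40 ± 0.17 and Camk2a 0.25 ± 0.16, of the processing enzymes the convertases Pcsk6 0.40 ± 0.19 and Pcsk1 -0.42 ± 0.22, and of the p75 partners Rtn4r 0.61 ± 0.33 and Lingo1 0.39 ± 0.27, none of them called.

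At the promoters of these lists, H3K4me3 was called lower at 2 of 107 genes, Bdnf and Npy, against 0.888% of all promoters. Npy, an appetite-stimulating neuropeptide, had a difference of -1.49 ± 0.26 (SE; adjusted p = 5.24e-06 in limma), with an RNA difference of -0.70 ± 0.57. H3K27me3 was called higher at 2 of 94, Rest, a repressor of neuronal genes, and Dusp6, a MAP kinase phosphatase, against 0.829% of all promoters, with differences of 1.34 ± 0.33 and 1.39 ± 0.34 (SE; adjusted p = 0.0281 and 0.0286 in limma). Their RNA differences were -0.02 ± 0.14 and 0.20 ± 0.32.

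**Figure D5:**
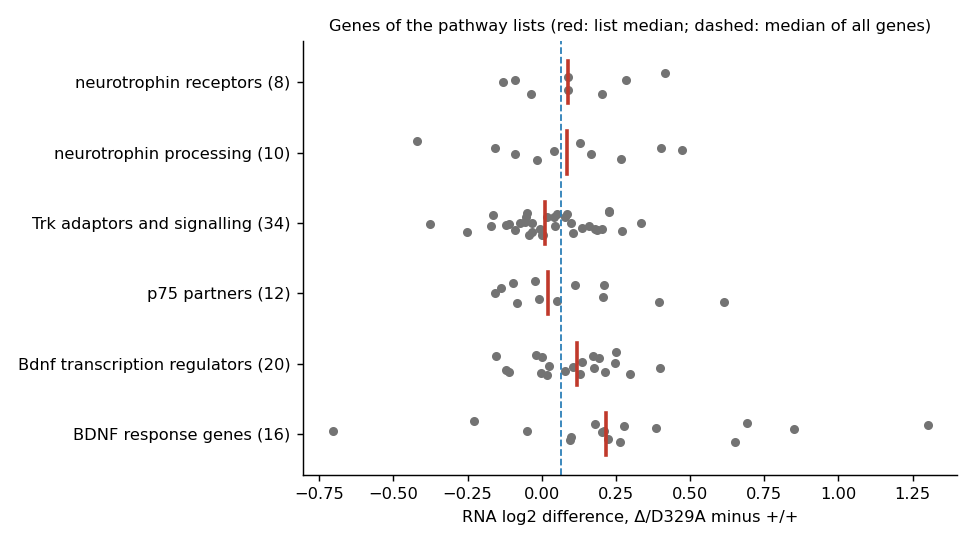
RNA log2 difference, Δ/D329A minus +/+, of each tested gene (point) in 6 of the 7 pathway lists (the ligands are not drawn), with the number tested in brackets, list medians in red and the median of all genes dashed. Points lie on both sides of 0 in each list, and no gene passed the test.

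The genes most like each member over the 9 libraries were found by the root mean square difference of log2 RPKM after subtracting each gene's mean. For Bdnf they were Slc33a1, the acetyl-CoA transporter, at 0.108, Insig1, a regulator of sterol synthesis, at 0.119, and Cabp7 at 0.131, against a spread of 0.433 (SD) for Bdnf itself. For Ntrk2 they were Ube4b, Anapc1 and Phc1 at 0.0335 to 0.0432, for Ntrk3 Hnrnpl, Magi2 and Csmd1 at 0.0504 to 0.0642, and for Ngfr Dmap1, 2310016M24Rik and Raly at 0.106 to 0.113. For Ntf3, at the floor in several libraries, Mnd1, Hist1h2an and Wif1 were nearest, at 0.456 to 0.461. These distances share library depth and the share of reads on genes.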

How the data were processed

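Total RNA of whole hypothalamus was depleted of ribosomal RNA and sequenced, and the study calls its kit opposite-strand specific (whether counting used strand is not given in the sources used here). The authors trimmed and mapped reads to GRCm38 and deposited log2 RPKM values per gene. For native ChIP after micrococcal nuclease digestion they deposited read coverage signal scaled to library size (RPM) in 2000 bp tiles spaced 1000 bp. The authors left out 1 further Δ/D329A RNA library of low quality, and the bisulfite data are not analysed here. The submitters' processing notes name Trim Galore 0.4.3, HISAT2 2.0.5 and Bowtie2 2.3.2.

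Whole reads were recovered from 100% of the RNA values (tolerance 0.02 read) and the ChIP values (0.01), with a floor of 0.9 reads for RNA. limma with trend (3.58.1) was fitted over nuclear genes (13 mitochondrial ones left out) at 0.1 RPKM or more in 4 libraries (the floor lets 1724 genes without a read pass), and over promoters, gene bodies and sites at a mean of 0.1 RPM with 0.1 RPM added. Calls were at Benjamini-Hochberg adjusted p under 0.01 (RNA) or 0.05. edgeR (4.0.16) and DESeq2 (1.42.0) on recovered reads, pseudocounts, filters, input, centring, blocks and left-out libraries were alternatives. Fits were tested on simulated data. The limma fits of RNA, promoters and sites missed most changes of 1 on the log2 scale, so no call does not show equal levels. Sites were runs of tiles at 3 times input in the mean over both genotypes. Named genes were the members, the other ligands and receptors, in each list the genes called or else the 2 of smallest p, and the 3 nearest profiles. Results of some genes under this rule are not reported here. Members and lists were chosen with earlier results of these data known. Per the study, replicates are individual animals, and each ChIP-seq sample served for the 3 marks and the input. Values of different marks therefore come from the same animals.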

Additional observations from a re-analysis of the deposited data

Results flagged for a closer look

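Among 18 groups of RNA values tested for a sample far from the rest (9 genes in 2 genotypes), 2 had one, and chance alone gives about 1 in 20. In Ntrk3 the highest +/+ library, at 3.43 log2 RPKM, stood apart from the next at 3.06, with a gap of 0.752 of the group's range against a critical value of 0.71. In Sort1 the lowest Δ/D329A library, at 3.68 log2 RPKM, stood apart from the next at 4.04, with a gap of 0.850 of the range against 0.829.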

How the results depend on the processing

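Across 45 member results and 608 alternative values, 587 kept their side of the threshold, 19 lost a call, 2 gained one and no call reversed, while 50 changed sign without a call. The RNA count of 19 was 11 with a filter at 0.5 RPKM, 251 with DESeq2, 77 with edgeR and 34 with median centring, and 11 to 18 without 1 replicate. The H3K4me3 promoter count of 261 was 0 without a filter, 149 as a ratio to input, 88 with median centring, 78 with edgeR, 525 with mitochondrial coverage as a block, and 123 to 549 without 1 replicate (549 without Δ/D329A replicate 2, which also gives the top of each H3K27me3 and site range). The H3K27me3 promoter count of 227 was 0 without a filter, 38 as a ratio to input and 78 to 454 without 1 replicate. The H3K36me3 promoter count of 11 was 6, 0, 2, 2 and 2 without a filter, as a ratio to input, with median centring, with a window of 1000 bp either side and with edgeR, and 2 to 16 without 1 replicate. The H3K27me3 gene body count of 7 was 3 with 0.5 RPM added, 1 without a filter, 2 as a ratio to input, 34 with edgeR, 1 with the mitochondrial block and 1 to 57 without 1 replicate. edgeR called 153 H3K36me3 gene bodies. The count of 413 sites was 172 as a ratio to input, 104 with median centring, 117 with edgeR, 1224 with the mitochondrial block and 167 to 1048 without 1 replicate.

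The Bdnf promoter difference was -0.97 without a filter and -0.84 as a ratio to input, neither called, and -0.80 to -1.19 without 1 replicate. The first Bdnf site was -1.03 as a ratio to input, -0.89 with centring and -0.88 with edgeR, none called, and -0.79 to -1.27 without 1 replicate. The second was -0.90, -0.63 and -0.62, none called, and -0.58 to -1.08 without 1 replicate. Ngfr was called with the mitochondrial block (-0.80) and without Δ/D329A replicate 2, and was -0.59 to -0.81 without 1 replicate. The cause was not tested.

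Replicate numbers showed no clear pairing of the samples in RNA, H3K4me3 or H3K36me3, and for H3K27me3 a weak pairing is possible. Deviations of same-numbered libraries correlated from -0.05 to 0.14 in RNA and -0.27 to 0.24 in H3K4me3. They correlated from 0.02 to 0.07 in H3K27me3 and -0.00 to 0.07 in H3K36me3. In the same order, 2 of 8, 2 of 6, 6 of 6 and 3 of 6 libraries correlated best with their own number. As a block, the number gave 394 H3K27me3 promoters, 1 H3K27me3 gene body, 16 RNA genes, 263 H3K4me3 promoters and -0.75 at the second Bdnf site, no longer called (adjusted p = 0.120 in limma). It ended no other member call.

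Ntf3 is limited by depth, with at most 7 reads per library.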
